A study of Mus musculus with 6 samples.

Results

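The genes followed here are markers of macrophages and monocytes in fetal mouse lung: Csf1r, Adgre1, Cd68, Mrc1, Marco, C1qa, C1qb, C1qc, Fcgr1 and Ccr2. These 10 symbols matched 10 of the 55359 rows of the deposited gene table, 1 row each. The tissue was whole lung of C57 mouse embryos at E18.5, shortly before birth, so transcripts of epithelium, vessels and blood were measured together with those of the mesenchyme. Of the 6 libraries, 3 carried the genotype label Prmt5 knockdown and 3 the label WT. The series text speaks of a knockout of Prmt5, an arginine methyltransferase, that is specific to Dermo1 in the mesenchyme, and Dermo1 is another name of Twist2. No other allele or treatment is labelled, and the protocol places the pregnant mice in a germ-free room. Nothing in the labels says whether the embryos came from separate litters, so the p-values measure only the spread between these samples, which may be technical. In bulk RNA, fewer cells of a type and less RNA per cell cannot be told apart.

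Macrophages are phagocytes of haematopoietic origin that settle in the lung before birth. Their survival depends on the receptor encoded by Csf1r and its ligands, and their gene programme on the transcription factor PU.1, encoded by Spi1. Fetal monocytes and macrophages of the lung give rise to the alveolar macrophages that mature around and after birth under the growth factor encoded by Csf2.

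The libraries held 14383415 to 19262837 counts, and all 10 genes passed the filter on low counts, among 17728 genes tested. Sftpc, the surfactant gene of the distal lung epithelium, stood at 7679 to 10212 FPKM (counts scaled to exonic length and library total). Prmt5 stood at 10.06, 11.8 and 12.0 FPKM in the knockdown-labelled lungs, against 11.7, 11.8 and 12.2 FPKM in wild type, a log2 fold change of -0.08 that did not pass (95% confidence interval -0.29 to 0.13, edgeR adjusted p = 0.682). The groups are therefore called knockdown-labelled and wild type. Genes of other tissues also differed between libraries. Those of heart muscle summed to 2130, 4502 and 1471 FPKM in knockdown-labelled replicates 1 to 3, against 179, 223 and 1498 FPKM in wild type replicates 1 to 3. Lymphocyte genes, with the T cell genes Cd4 and Cd8a among them, summed to 63.05, 92.5 and 11.04 FPKM in the knockdown-labelled lungs and to 9.51, 5.61 and 77.2 FPKM in wild type. High lymphocyte levels thus marked knockdown-labelled replicates 1 and 2 and wild type replicate 3.

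The comparison asks whether transcripts of lung macrophages and monocytes differ where Prmt5 is targeted in the mesenchyme. The clearest difference was in Fcgr1, the gene of the high-affinity receptor for IgG, whose level was 3.96 times that of wild type without passing edgeR's threshold. Small positive differences were seen in the genes of the complement protein C1q and in Cd68, and almost none in Csf1r. Mrc1 was the member with a negative difference. Of the 10 genes 0 passed edgeR's quasi-likelihood test at a Benjamini-Hochberg adjusted p under 0.05, where 0.0338% of all tested genes passed, 0.00564% higher and 0.0282% lower. Before adjustment, 3 had a p under 0.05, all higher in the knockdown-labelled lungs (Fcgr1, Cd68 and C1qa), beside 8.48% of all tested genes higher and 17% in either direction. DESeq2 called 1, Fcgr1, at an adjusted p under 0.05, beside 5.35% of the genes it gave an adjusted p, 2.33% higher and 3.02% lower. The median log2 fold change of the 10 was 0.24, with 9 positive, and that of all tested genes was 0.01, with 52.9% positive. The groups did not overlap for 4 of the 10 (Fcgr1, Cd68, C1qa and C1qc), all higher in the knockdown-labelled lungs, where 23.2% of tested genes separated, 10.8% higher and 12.4% lower. A log2 fold change of at least 1 in size was seen for Fcgr1 and Marco, both higher, beside 4.91% of tested genes, 4.37% higher and 0.536% lower. The unadjusted count was 1 without wild type replicate 3, where 2896 of 18254 tested genes passed, and 1 with embryo sex as a covariate, where 2524 of 17728 did. It was 5 without knockdown-labelled replicate 1, where 3287 of 18138 did.

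The same unadjusted threshold was read with the level of other tissues in the model. With heart muscle as a covariate, Fcgr1, Cd68 and Marco passed as higher, 3 of 10, beside 6.98% of tested genes, 3.32% higher and 3.67% lower. The same 3 members passed with the lymphocyte level as a covariate, beside 13.6% of tested genes, 6.97% higher and 6.61% lower. With the pan-leukocyte level, those members and C1qc passed as higher, 4 of 10, beside 12.7% of tested genes, 6.02% higher and 6.72% lower. C1qa did not pass in these fits. Cd68 did, but its unadjusted edgeR p was 0.0594 with embryo sex as a covariate, and 0.0566, 0.0938 and 0.0829 without knockdown-labelled replicate 2, knockdown-labelled replicate 3 and wild type replicate 3.

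**Figure D1:**
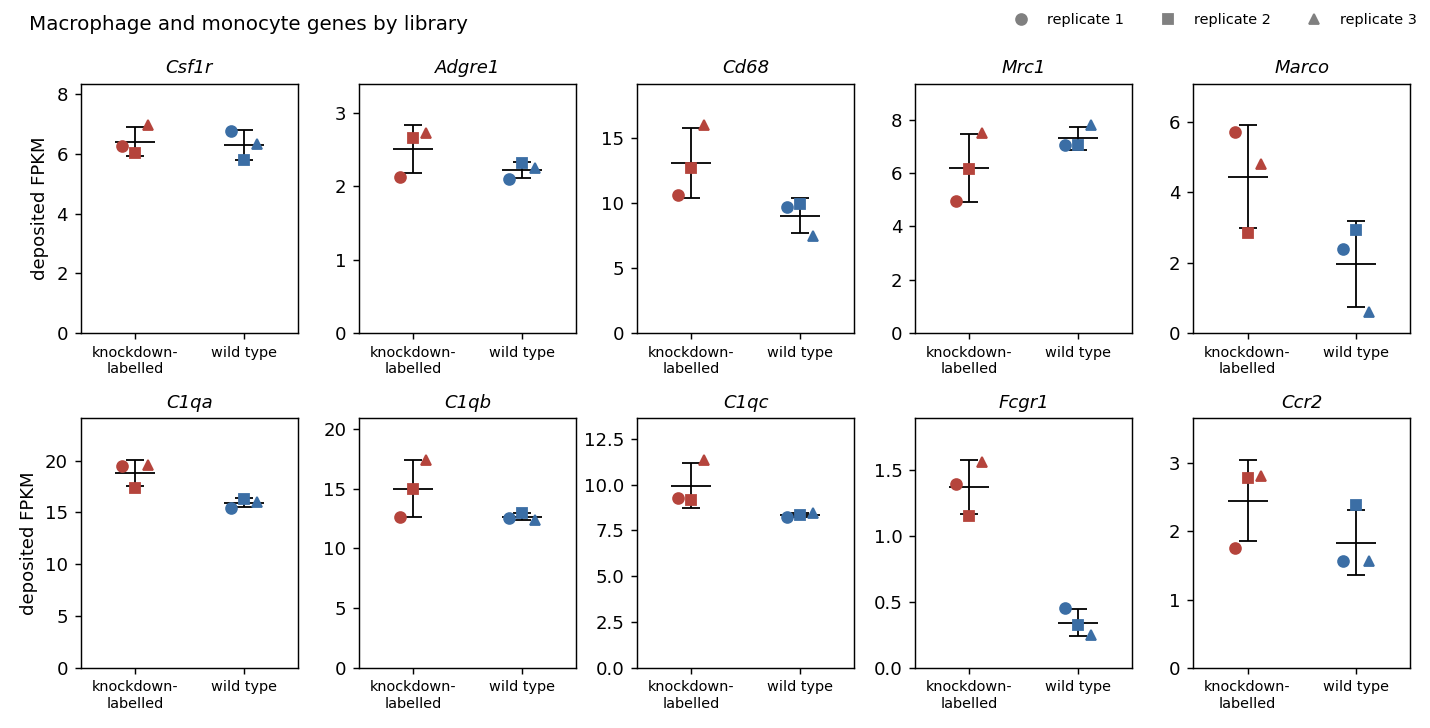
Deposited FPKM of the 10 macrophage and monocyte genes in each library, with knockdown-labelled lungs in red and wild type in blue, the mean as a bar and the SD as whiskers (n = 3 each). The groups are apart for Fcgr1, Cd68, C1qa and C1qc, and Fcgr1 shows the widest gap for its level, 1.15 to 1.56 FPKM against 0.25 to 0.45 FPKM.

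**Figure D2:**
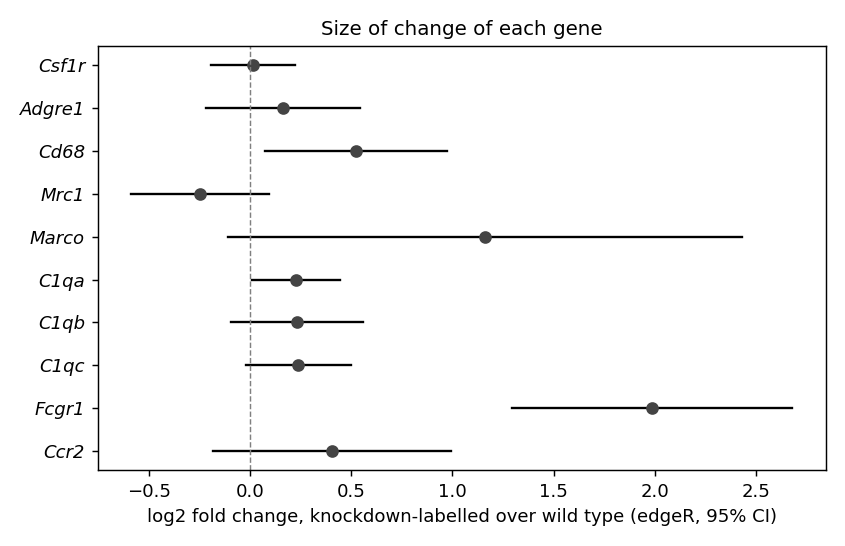
Log2 fold change of each gene, knockdown-labelled over wild type, from edgeR with its 95% confidence interval. The interval of Fcgr1 runs from 1.29 to 2.68 and that of Csf1r from -0.19 to 0.22.

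Per unit of length, C1qa and C1qb were the most abundant of the set and Fcgr1 the least. In the knockdown-labelled lungs the order of mean FPKM was C1qa (18.8), C1qb (15.0), Cd68 (13.1), C1qc (9.93), Csf1r (6.41), Mrc1 (6.19), Marco (4.45), Adgre1 (2.51), Ccr2 (2.45) and Fcgr1 (1.37). The ranges of neighbours overlapped there except between C1qc and Csf1r, Marco and Adgre1, and Ccr2 and Fcgr1. In wild type it was C1qa (15.9), C1qb (12.7), Cd68 (9.02), C1qc (8.35), Mrc1 (7.30), Csf1r (6.29), Adgre1 (2.22), Marco (1.97), Ccr2 (1.84) and Fcgr1 (0.34). Overlap between neighbours in wild type was limited to Cd68 with C1qc, Adgre1 with Marco, and Marco with Ccr2. Both orders thus began with C1qa, C1qb and Cd68 and ended with Ccr2 and Fcgr1. The summed level of the 10 genes was 74.2, 75.7 and 90.7 FPKM in the knockdown-labelled lungs, against 66.3, 68.3 and 63.15 FPKM in wild type. In CPM, that is counts scaled to library size, the sums overlapped, at 166, 178 and 210.3 in the knockdown-labelled lungs and 165, 168 and 162 in wild type. The highest sum on both scales belonged to knockdown-labelled replicate 3, which was also sequenced most deeply.

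Receptors and surface markers carried by most macrophages differed little. Csf1r, the receptor for the growth factors CSF1 and IL-34, had 6.25, 6.02 and 6.96 FPKM in the knockdown-labelled lungs and 6.78, 5.78 and 6.32 FPKM in wild type. These ranges cover each other, and the log2 fold change was 0.015 (SE 0.088, edgeR adjusted p = 0.957). A difference beyond 0.22 in either direction lies outside its 95% interval of -0.19 to 0.22. In the table's coordinates 873 bases of Csf1r are shared with Hmgxb3 on the other strand, and the strand setting of the counts is not given in the sources used here. Adgre1, which encodes the classical mouse macrophage antigen F4/80, had 2.13, 2.66 and 2.73 FPKM in the knockdown-labelled lungs, against 2.10, 2.32 and 2.25 FPKM in wild type. Knockdown-labelled replicate 1 lay among the wild type values, and the log2 fold change of 0.16 (95% interval -0.21 to 0.54) did not pass (edgeR adjusted p = 0.658).

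Cd68, a glycoprotein gene of late endosomes and lysosomes in phagocytes, was among the genes whose groups did not overlap. It had 10.6, 12.7 and 16.0 FPKM in the knockdown-labelled lungs, against 9.68, 9.90 and 7.47 FPKM in wild type. The lowest knockdown-labelled value lay just above the highest wild type one. Its log2 fold change was 0.53 (SE 0.19, 95% interval 0.076 to 0.97, edgeR adjusted p = 0.243). Leaving out knockdown-labelled replicate 3 brought this value to 0.37.

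The scavenger receptor genes went in opposite directions, and neither passed. Marco, a receptor for bacteria and particles that marks alveolar macrophages of the adult lung, had 5.71, 2.85 and 4.80 FPKM in the knockdown-labelled lungs, against 2.38, 2.93 and 0.60 FPKM in wild type. Wild type replicate 3 stood lowest, with 18 counts, and wild type replicate 2 lay above knockdown-labelled replicate 2. Its log2 fold change came to 1.16 (SE 0.54, 95% interval -0.11 to 2.43, edgeR adjusted p = 0.327), and 0.73 without wild type replicate 3. With the heart muscle level as a covariate it was 3.10, although still short of the threshold. Mrc1, the mannose receptor CD206, had 4.95, 6.14 and 7.49 FPKM in the knockdown-labelled lungs and 7.06, 7.05 and 7.79 FPKM in wild type. Knockdown-labelled replicate 3 lay inside the wild type range, and the log2 fold change was -0.25 (SE 0.14, 95% interval -0.59 to 0.093, edgeR adjusted p = 0.435). Lymphatic and sinusoidal endothelium also carries Mrc1 or Marco, the genes that went in opposite directions here. Of 9 tested genes of those cells 7 were lower in the knockdown-labelled lungs, their median log2 fold change being -0.31, and their summed level was 141, 148 and 121 FPKM in the knockdown-labelled lungs against 194, 180 and 173 FPKM in wild type. Their part in the Mrc1 and Marco values was not tested.

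C1qa, C1qb and C1qc encode the A, B and C chains of C1q, the recognition protein that starts the classical complement pathway and tags dying cells for uptake. They lie beside each other on chromosome 4 on the minus strand, within 18675 bases (136607440 to 136626114 in the table's coordinates, whose build is not named). The stretches of 250 bases before the RefSeq starts of C1qb and C1qc are shown because these neighbours were measured at similar changes (GRCm38.p6, minus strand, chr4:136886201-136886450 and chr4:136892915-136893164, 5′ to 3′). Capitals mark matches to GAGGAA on either strand, the core of the box to which PU.1 binds.
C1qb: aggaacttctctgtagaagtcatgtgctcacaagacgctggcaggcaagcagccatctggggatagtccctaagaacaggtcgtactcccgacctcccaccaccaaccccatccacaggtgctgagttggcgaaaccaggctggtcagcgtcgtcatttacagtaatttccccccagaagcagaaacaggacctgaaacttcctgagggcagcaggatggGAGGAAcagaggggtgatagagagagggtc
C1qc: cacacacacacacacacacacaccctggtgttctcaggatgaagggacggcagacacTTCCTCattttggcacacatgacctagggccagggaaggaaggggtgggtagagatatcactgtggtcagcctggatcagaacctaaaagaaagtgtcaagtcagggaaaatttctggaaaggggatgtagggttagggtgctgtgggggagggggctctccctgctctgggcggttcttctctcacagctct
Each of them holds 1 match, from 30 to 25 bases before the start of C1qb and from 193 to 188 before that of C1qc. The bases just after the start used for C1qb were not found in a GENCODE transcript of that gene, unlike those of C1qc, so its position is less certain. Promoter sequences were found for 7 of the 10 genes, and 6 of those 7 hold GAGGAA in this window, as do 23.3% of 32841 mouse promoter windows of the same length.

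All C1q chains were slightly higher in the knockdown-labelled lungs, by similar amounts, and none passed the test. C1qa had 19.5, 17.3 and 19.6 FPKM in the knockdown-labelled lungs, against 15.5, 16.3 and 16.0 FPKM in wild type. Its groups did not overlap, with a log2 fold change of 0.23 (SE 0.092, 95% interval 0.0086 to 0.44, edgeR adjusted p = 0.282). C1qb had 12.6, 14.95 and 17.4 FPKM in the knockdown-labelled lungs and 12.6, 12.97 and 12.4 FPKM in wild type. Knockdown-labelled replicate 1 was inside the wild type range, and the log2 fold change was 0.23 (SE 0.14, edgeR adjusted p = 0.440). C1qc had 9.26, 9.18 and 11.35 FPKM in the knockdown-labelled lungs, against 8.23, 8.35 and 8.46 FPKM in wild type. Here the groups were apart again, at a log2 fold change of 0.24 (SE 0.11, edgeR adjusted p = 0.324). When knockdown-labelled replicate 3 was removed, these values were 0.21 for C1qa, 0.12 for C1qb and 0.14 for C1qc.

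The proportion of the chains was similar in both groups. C1qa made up 47.1%, 41.8% and 40.5% of the summed C1q FPKM in the knockdown-labelled lungs, against 42.6%, 43.3% and 43.4% in wild type. C1qc made up 22.2% to 23.5% in the knockdown-labelled lungs and 22.2% to 22.9% in wild type. Knockdown-labelled replicate 1 had the largest share of C1qa and the smallest of C1qb, at 30.5%, where the other libraries had 33.7% to 36.1%. Across the 6 libraries the mean profile of the C1q genes, as log2 CPM centred on each gene's mean, was nearest to that of C1qc itself, with a root mean square difference of 0.024. Outside the set, the nearest named genes were Ufsp2, Mfsd6, Nt5m, Bcas2, Slc9a3r1, Tmem147, Dtymk and Cnot3, at 0.026 to 0.042. Gm-numbered, Rik, pseudogene and unnamed genes were left out of that choice. C1qa and C1qb stood at positions 152 and 140 of 17728, Adgre1 at 502, Csf1r at 1864 and Marco at 17114. The C1q genes are themselves part of the profile, so their nearness is in part built in. All genes share the 6 libraries and their scaling, so the order is a description only.

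Fcgr1 (ENSMUSG00000015947, chromosome 3, 96190225 to 96201285, minus strand in the table's coordinates) encodes CD64, the receptor with which monocytes and macrophages bind single IgG molecules. No other gene of the table overlaps it. The 250 bases before its RefSeq start are shown because it was the member with the largest difference (GRCm38.p6, minus strand, chr3:96293970-96294219, 5′ to 3′). Capitals mark GAGGAA and TTCNNNGAA on either strand, and TTCNNNGAA is the pattern to which STAT factors bind at interferon-gamma activated sites.
Fcgr1: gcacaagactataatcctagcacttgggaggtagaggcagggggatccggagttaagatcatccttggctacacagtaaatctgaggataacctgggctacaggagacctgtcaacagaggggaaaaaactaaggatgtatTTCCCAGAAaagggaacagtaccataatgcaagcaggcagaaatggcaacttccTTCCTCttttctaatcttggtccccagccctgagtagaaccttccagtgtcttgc
The window holds 1 TTCNNNGAA match, from 109 to 101 bases before the start, and 1 GAGGAA match, from 55 to 50 bases before it, and the matches do not overlap. Of all promoter windows 7.02% hold TTCNNNGAA, and none of the windows of the other 6 members searched does.

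Every knockdown-labelled library had more Fcgr1 than every wild type one. The counts were 58, 43 and 78 in the knockdown-labelled lungs, against 19, 12 and 10 in wild type, which is 1.39, 1.15 and 1.56 FPKM against 0.45, 0.32 and 0.25 FPKM. The means were 1.37 ± 0.206 FPKM in the knockdown-labelled lungs and 0.34 ± 0.101 FPKM in wild type (SD, n = 3 each). The lowest knockdown-labelled value was thus far above the highest wild type one. On the log2 scale the fold change was 1.99 (SE 0.29, 95% interval 1.29 to 2.68), at rank 54 of 17728 by p. It did not pass in edgeR (adjusted p = 0.0804) and passed in DESeq2 (log2 fold change 2.00, adjusted p = 0.000493). In edgeR without the filter on low counts it also passed (adjusted p = 0.0457). When single libraries were removed, its log2 fold change ranged from 1.80 to 2.24 and the edgeR adjusted p from 0.0902 to 0.416. With the lymphocyte level as a covariate the log2 fold change was 2.18 (edgeR adjusted p = 0.246), and with the heart muscle level 2.63 (edgeR adjusted p = 0.693). The part of these tissues in the Fcgr1 values was not tested.

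Ccr2, the receptor by which monocytes follow the chemokine CCL2, had 1.76, 2.78 and 2.81 FPKM in the knockdown-labelled lungs, against 1.56, 2.38 and 1.57 FPKM in wild type. Knockdown-labelled replicate 1 lay within the wild type range. The log2 fold change of 0.41 (SE 0.25, 95% interval -0.18 to 0.99) did not pass (edgeR adjusted p = 0.457) and was 0.29 to 0.64 when single libraries were removed. The ligand gene Ccl2 had 1.26, 1.04 and 1.14 FPKM in the knockdown-labelled lungs and 0.81, 0.67 and 0.51 FPKM in wild type, groups that do not overlap (log2 fold change 0.77, edgeR adjusted p = 0.261).

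Levels were also set against Csf1r in the same library, a ratio chosen after the values were seen. The ratio of Fcgr1 to Csf1r was 0.222, 0.191 and 0.224 in the knockdown-labelled lungs, against 0.0664, 0.0554 and 0.0396 in wild type. These ratios do not overlap, and since Csf1r itself hardly differed they restate the Fcgr1 levels. The ratio of C1qc to Csf1r was 1.48 to 1.63 in the knockdown-labelled lungs and 1.21 to 1.44 in wild type, also apart. For C1qa, C1qb, Cd68, Marco, Mrc1, Adgre1 and Ccr2 the ratios of the groups overlapped. Cd68 to Csf1r was 1.70 to 2.30 in the knockdown-labelled lungs and 1.18 to 1.71 in wild type, and Mrc1 to Csf1r was 0.792 to 1.08 against 1.04 to 1.23.

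**Figure D3:**
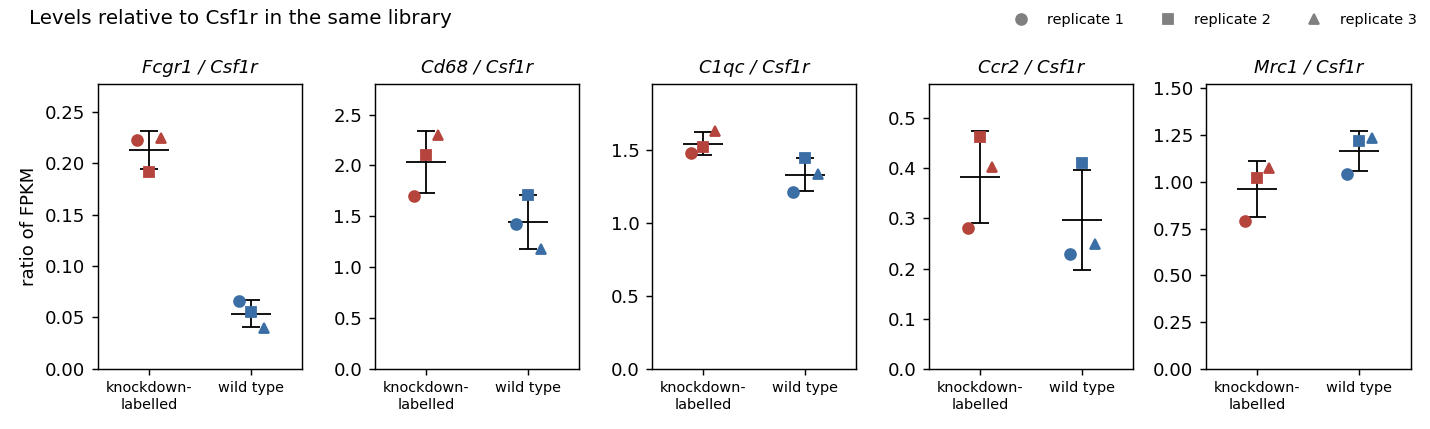
Ratio of the FPKM of Fcgr1, Cd68, C1qc, Ccr2 and Mrc1 to the FPKM of Csf1r in the same library, with the mean and SD of each group (n = 3 each). Fcgr1 lies at 0.191 to 0.224 in the knockdown-labelled lungs and at 0.0396 to 0.0664 in wild type.

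General leukocyte genes gave a background for these levels. The mean log2 CPM of 16 genes found in most white blood cells was 4.29, 4.57 and 3.90 in the knockdown-labelled lungs and 3.83, 3.66 and 4.13 in wild type. The highest of each group were libraries with high lymphocyte levels. Members minus these genes, the mean log2 difference was -0.34 in the knockdown-labelled lungs and -0.43 in wild type. That is a difference of 0.09 between groups (exact permutation test, two-sided, p = 0.8, where 3 against 3 cannot go below 0.1). It turned to -0.20 with Ptprc as the only leukocyte gene, to -0.17 without knockdown-labelled replicate 3 and to -0.15 without wild type replicate 3. Mast cell and basophil genes summed to 50.02, 60.04 and 92.0 FPKM in the knockdown-labelled lungs, against 64.7, 66.8 and 62.3 FPKM in wild type. Endothelial genes summed to 476, 562 and 465 FPKM in the knockdown-labelled lungs, against 735, 654 and 648 FPKM in wild type. Of these 10 genes 8 were lower at an unadjusted edgeR p under 0.05, beside 8.52% of all tested genes. At an adjusted p under 0.05 edgeR called 0 and DESeq2 called 8 lower, beside 3.02% of the genes that DESeq2 gave an adjusted p. The part of these cells in the differences of the members was not tested.

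**Figure D4:**
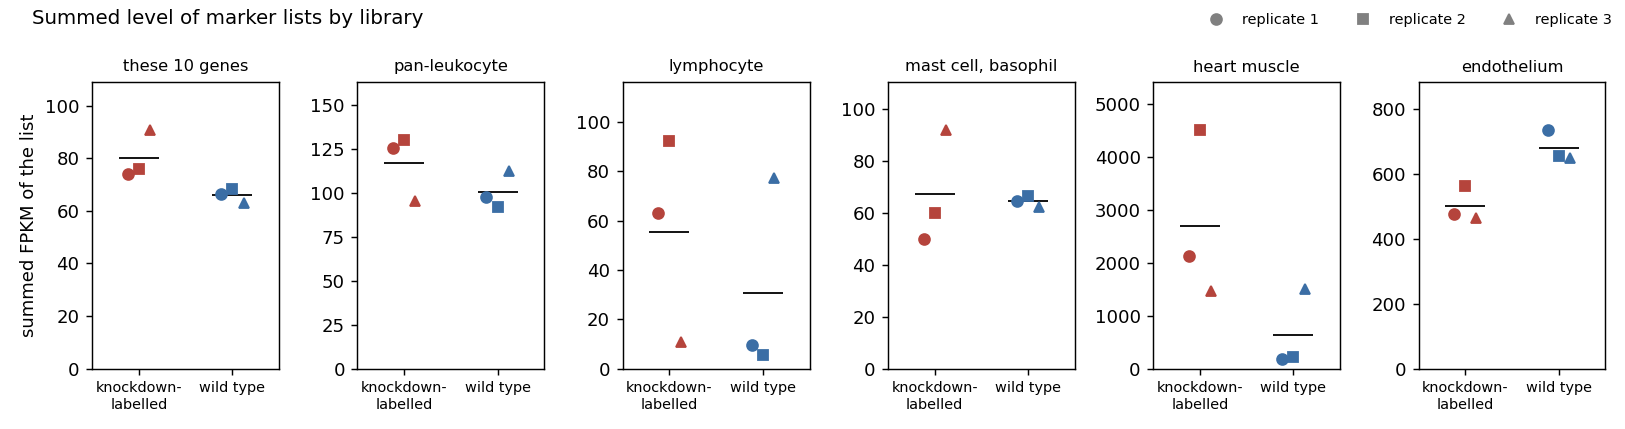
Summed FPKM of the 10 macrophage and monocyte genes and of marker lists of other cells in each library, with the group mean as a bar. The 10 genes sum to 74.2 to 90.7 FPKM in the knockdown-labelled lungs and 63.15 to 68.3 FPKM in wild type, while lymphocyte genes are high in 2 knockdown-labelled libraries and 1 wild type library.

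Other genes of the same cells and pathways were taken from 8 lists. In each of them 0 genes passed an edgeR adjusted p of 0.05, so the counts below are at an unadjusted p under 0.05, which 8.48% of all tested genes passed as higher and 8.52% as lower. Of 10 genes of the CSF1 and CSF2 axis, 1 was higher and 2 were lower (DESeq2 called 1 lower). The ligand gene Csf1 had 5.05 ± 0.628 FPKM in the knockdown-labelled lungs and 5.30 ± 0.419 FPKM in wild type (SD, n = 3 each). Il34, the other ligand of the receptor, had 7.65 ± 0.327 against 9.40 ± 0.709 FPKM, a log2 fold change of -0.31 (edgeR adjusted p = 0.210). Tyrobp, an adaptor of activating myeloid receptors, had 22.9 ± 3.31 against 17.5 ± 2.33 FPKM.

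Fc receptor genes other than Fcgr1 showed 1 of 5 higher and 0 lower (DESeq2 called 1 higher), with a median log2 fold change of 0.39. That gene was Fcer1g, the gamma chain through which CD64 signals. It had 22.5, 15.35 and 26.0 FPKM in the knockdown-labelled lungs, against 10.6, 9.78 and 13.5 FPKM in wild type. The groups did not overlap, and the log2 fold change was 0.90 (SE 0.21, edgeR adjusted p = 0.146, DESeq2 adjusted p = 0.00709). Mast cells also carry Fcer1g, and of 7 tested mast cell and basophil genes 3 passed the unadjusted threshold as higher and 3 as lower. The higher ones included the protease genes Cpa3 and Cma1, with log2 fold changes of 1.45 and 1.59 (edgeR adjusted p = 0.183 and 0.226) and their highest values in knockdown-labelled replicate 3, as for Fcer1g. The lower ones were Kit, Hdc and Gata2, at -0.60, -0.62 and -0.40 (edgeR adjusted p = 0.180, 0.244 and 0.294). What these cells add to Fcer1g was not tested. The low-affinity receptor gene Fcgr3 had 7.68 ± 1.58 FPKM in the knockdown-labelled lungs and 6.62 ± 1.16 FPKM in wild type (log2 fold change 0.20), and the inhibitory Fcgr2b 1.32 ± 0.546 against 0.997 ± 0.225 FPKM (0.39). Neither passed.

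Transcription factors split in direction, with 2 of 15 higher and 3 lower (DESeq2 called 1 and 1) and a median of 0.08. Spi1 had 3.99, 5.34 and 5.61 FPKM in the knockdown-labelled lungs, against 3.54, 3.10 and 2.63 FPKM in wild type, with no overlap (log2 fold change 0.68, SE 0.19, edgeR adjusted p = 0.177). Runx1, a regulator of blood cell formation, had 4.24 ± 0.246 against 3.28 ± 0.0954 FPKM (log2 fold change 0.36, edgeR adjusted p = 0.140). Zeb2, which is active in macrophages and in mesenchymal cells, had 10.45 ± 1.38 FPKM in the knockdown-labelled lungs and 14.7 ± 0.0907 FPKM in wild type (log2 fold change -0.50, edgeR adjusted p = 0.136). Id3, found in many cell types, had 49.5 ± 6.42 against 60.1 ± 1.28 FPKM.

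Among 20 tested genes of other macrophage markers, 5 were higher and 1 was lower (DESeq2 called 2 and 1), with a median of 0.39. Fabp4, a fatty acid carrier of alveolar macrophages that capillary cells and adipocytes also make, had 10.02, 14.4 and 8.78 FPKM in the knockdown-labelled lungs, against 2.91, 3.96 and 5.50 FPKM in wild type (log2 fold change 1.42, SE 0.27, edgeR adjusted p = 0.119, DESeq2 adjusted p = 1.32e-05). Ear2, an eosinophil-associated ribonuclease gene, had 29.7, 13.8 and 30.7 FPKM in the knockdown-labelled lungs, against 12.0, 10.2 and 8.95 FPKM in wild type (log2 fold change 1.24, edgeR adjusted p = 0.148). For both genes every knockdown-labelled value exceeded every wild type one. Ear2 belongs to a family of near-identical copies, so its counts are uncertain. Mpeg1, which encodes a pore-forming protein of macrophages, had 13.2 ± 1.56 against 9.64 ± 1.66 FPKM. Lyve1, carried by lymphatic endothelium and by some tissue macrophages, was the lower one, with 56.5 ± 3.92 FPKM in the knockdown-labelled lungs and 80.5 ± 9.83 FPKM in wild type (log2 fold change -0.52, edgeR adjusted p = 0.136).

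Of 16 lysosome genes 3 were higher and 0 lower (DESeq2 called 0), with a median of 0.06. Among the higher ones, the leukocyte gene Laptm5 had 11.4 ± 1.81 FPKM in the knockdown-labelled lungs against 8.13 ± 0.886 FPKM in wild type, and the cathepsin gene Ctss had 27.2 ± 4.22 against 19.9 ± 2.42 FPKM. Their log2 fold changes were 0.48 and 0.44 (edgeR adjusted p = 0.191 and 0.208).

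Of 17 scavenger and efferocytosis genes 1 was higher and 3 were lower (DESeq2 called 0 and 3), with a median of 0.09. The lower ones were Pros1, a bridging ligand for the uptake receptors Mertk, Axl and Tyro3 (21.0 ± 0.766 against 28.1 ± 0.504 FPKM, log2 fold change -0.43, edgeR adjusted p = 0.0903), the scavenger receptor gene Colec12 (13.2 ± 0.845 against 17.7 ± 0.585 FPKM, -0.44) and Stab1 (12.0 ± 0.683 against 14.8 ± 0.218 FPKM, -0.31). Endothelial cells make all of these as well. Gas6, the other bridging ligand, had 101 ± 9.56 FPKM in the knockdown-labelled lungs against 84.3 ± 4.78 FPKM in wild type (0.25, edgeR adjusted p = 0.271).

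Complement genes beside C1q had 3 of 21 higher and 0 lower (DESeq2 called 0), with a median of 0.09. They were Itgb2, the beta chain of the complement receptors and other leukocyte integrins (7.43 ± 0.916 against 5.53 ± 0.552 FPKM), C4b (1.36 ± 0.142 against 0.853 ± 0.258 FPKM, with a near-identical copy in C4a) and Cd55, an inhibitor of the cascade (12.6 ± 1.24 against 10.4 ± 0.684 FPKM). The proteases that join C1q in the C1 complex had log2 fold changes of 0.08 for C1ra and 0.08 for C1s1, well short of the threshold. Of 18 monocyte genes and monocyte chemokines 2 were higher and 0 lower (DESeq2 called 0), Ccl2 among them. The median there was 0.20.

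**Figure D5:**
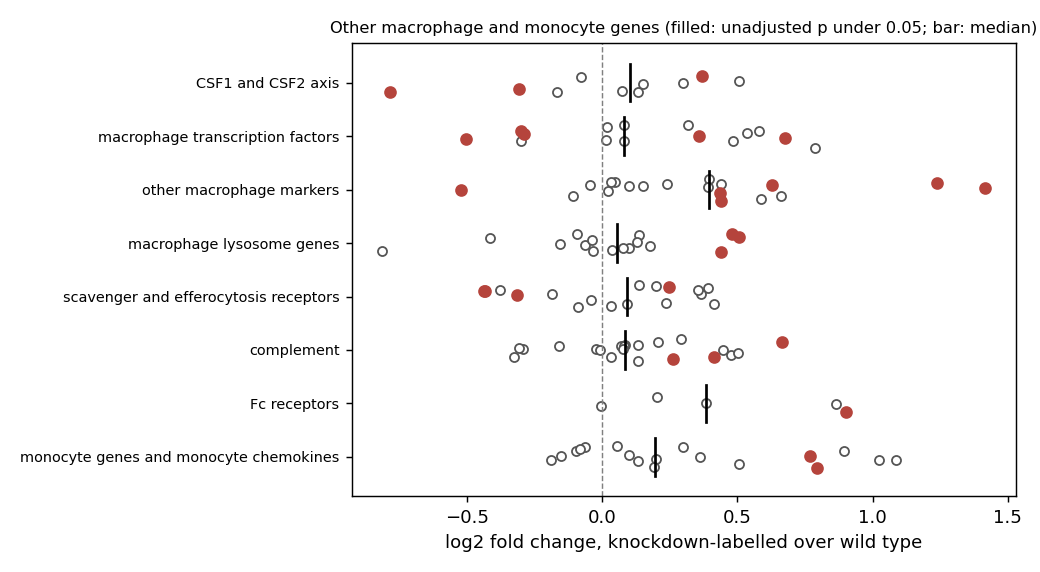
Log2 fold change, knockdown-labelled over wild type, of the tested genes of 8 lists, 1 point each, with the median as a bar and genes at an unadjusted p under 0.05 filled. Medians lie between 0.06 for lysosome genes and 0.39 for Fc receptors and other macrophage markers.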

How the data were processed

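RNA came from whole lung and, per the labels' protocols, was purified on columns, selected for poly(A), fragmented and primed at random. Cutadapt 1.9.1, HISAT2 2.0.1 and HTSeq 0.6.1 are named in the submitters' processing notes, with no roles. Which genome build and strand setting the authors used is not given in the sources used here. Raw counts were deposited, whole numbers per gene. FPKM stands beside them per the file headers, and agreed within 0.0050 with FPKM recomputed from count, library total and exonic length. All 55359 rows name a gene.

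Counts were tested with edgeR 4.0.16 in R 4.3.3 (filterByExpr, TMM, quasi-likelihood, group as the only term, two-sided, Benjamini-Hochberg over 17728 genes). SEs are the absolute log2 fold change over the root of F. DESeq2 1.42.0 and limma 3.58.1 (on log2(FPKM + 1) for genes of mean FPKM of at least 1) served as alternatives, beside other scalings, filters, covariates and left-out libraries. Log2 CPM used a prior count of 2. A floor of 3 counts is 0.156 to 0.209 CPM by library, counting error only. The edgeR fit was tested on simulated data. Embryo sex was read from Xist and Y-linked genes.

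The members and gene lists were chosen with earlier results of these data known. Named genes are the members, up to 4 other genes with the smallest p per list, Prmt5, and the 8 genes nearest to the C1q profile. For those 8, Gm-numbered, Rik, pseudogene and unnamed genes were left out. Sftpc, Cd4, Cd8a, Csf1, Fcgr2b, C1ra, C1s1, Ptprc, Cpa3, Cma1, Kit, Hdc, Gata2 and Hmgxb3 were added after their values were seen. Of these, Cd4, Fcgr2b, Cpa3, Cma1, Kit and Hdc also fall under the rule of the smallest p per list. Some list genes that the rule names are not reported here. Upstream sequences are RefSeq's on GRCm38.p6, for the 7 members searched. Besides GAGGAA and TTCNNNGAA they were searched on both strands for TTGCNNAA (C/EBP, in 9.57% of all windows; Cd68 among the members), TGCTGAC (the MAF half-site, 3.81%; no member) and the interferon-stimulated response element (GAAA repeated after any 2 bases, 2.98%; no member).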

Additional observations from a re-analysis of the deposited data

How the results depend on the processing

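Median-of-ratios and upper-quartile scaling, totals without heart muscle, erythroid, mitochondrial and the 20 most abundant genes, a mean FPKM of at least 5, limma at pseudocounts of 1 and 0.1, robust estimation, each left-out library, and embryo sex, heart muscle and pan-leukocyte covariates left the count of members past an adjusted p of 0.05 at 0. In these fits 0 to 17 of all tested genes passed, with 17 of 18254 without wild type replicate 3 and 0 of 17728 with embryo sex as a covariate. The count of members was 1 in DESeq2, beside 854 of 15975 genes, and 1 with no filter, beside 81 of 32572, Fcgr1 each time. At an unadjusted p under 0.05 the count was 3, beside 17% of all tested genes, against 1 with embryo sex as a covariate and 1 to 5 with a library left out. Members whose groups do not overlap numbered 4, beside 23.2% of all tested genes, and 4 to 7 with a library left out. The share over all genes was not computed with a library left out. The median log2 fold change of 0.24 stayed between 0.17 and 0.33 with a library left out. The difference from pan-leukocyte genes was 0.09, turned to -0.20 with Ptprc alone and ranged from -0.17 to 0.28 with a library left out. Csf1r turned to -0.028 with embryo sex as a covariate and ranged from -0.038 to 0.074 with a library left out. The cause was not tested. Fcgr1 has a mean below 1 FPKM. It was therefore not in the limma fits, which tested 9 members, nor in the fit at a mean FPKM of at least 5, which tested 6. Those fits could not call Fcgr1. Its 10 to 78 counts per library limit its precision. After the data were seen, the lymphocyte level as a covariate was added (count 0, beside 1 of 17728 tested genes). Leaving out knockdown-labelled replicate 2 with wild type replicate 3, each with the most heart muscle transcripts of its own group, was added too (count 0, beside 142 of 17947). No paired analysis was possible because the labels give the 2 groups no shared replicate numbers.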
